A study of Mus musculus with 24 samples.

Results

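Interferon-induced genes and the guanylate-binding proteins are described here across mouse CD4 T cells at rest and after activation, with and without the deletion of either Acly or Pdha1. The set holds 47 genes, chosen by their symbols from the 46981 gene identifiers of the deposited table, and all 47 had a row there. They comprise 12 genes best known as targets of type I interferon (Isg15, Ifit1, Ifit2, Ifit3, Oas1a, Oas2, Oas3, Oasl1, Oasl2, Mx1, Mx2 and Ifi44), 15 GTPases best known as targets of interferon gamma (Gbp2 to Gbp9 and the immunity-related GTPases Irgm1, Irgm2, Igtp, Iigp1, Ifi47, Tgtp1 and Tgtp2), 4 sensors of nucleic acids, 5 transcription factors or feedback genes and 11 further interferon-induced genes. Of the 47, 46 passed the filter on low values in each cohort. Mx2 did not pass and was listed at 0 in every Acly library.

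Type I interferons bind a receptor of Ifnar1 and Ifnar2 and act through a complex that holds Irf9 and reads the interferon-stimulated response element (ISRE). Interferon gamma, which T cells themselves secrete after activation, binds Ifngr1 and Ifngr2 and acts mostly on genes that carry the gamma-activated site (GAS). Many genes answer to both, and the division into type I genes and GTPases follows the interferon each is best known for. The GTPases attack the vacuoles and membranes of intracellular pathogens, while the type I genes mostly bind, cut or tag viral RNA and protein.

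The study sequenced RNA from CD4 T cells in 24 libraries, 3 in each of 8 groups. In the Pdha1 cohort these were activated and resting knockout (KO) cells of Pdha1fl/fl CD4CreERT2 mice, and activated and resting cells labelled WT. Pdha1 encodes a subunit of the mitochondrial pyruvate dehydrogenase complex, a source of acetyl-CoA, and CreERT2 is a Cre that has to be switched on with a drug, for which the labels give no schedule. In the Acly cohort they were activated and resting KO cells of CD4-Cre Aclyfl/fl mice, in which the Cd4 promoter drives Cre in T lineage cells, and activated and resting cells labelled WT. Acly encodes the enzyme that splits citrate to supply acetyl-CoA in the cytosol and nucleus. Activated cells received CD3/CD28 stimulation for 24 h and resting cells none, and all groups shared a medium of RPMI with 15% fetal bovine serum and 2 mM glutamine. No age or strain is given, nor whether the WT mice carried a floxed allele or Cre, nor whether the 3 libraries of a group came from separate animals, so p-values measure only the spread between these libraries.

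The promoters of 33 of the 47 genes were found in the RefSeq promoter table on GRCm38.p6, each spanning 250 bases before and 50 bases after a start site. They were searched on both strands for an ISRE-like motif, GAAANNGAA, and for the GAS motif, TTCNNNGAA. An ISRE-like match was present in 22 of 33 members (66.7%), against 9.76% of all 27025 genes of the table, counted in the same way by gene over all of its promoters. It was present in 9 of 10 GTPases (90%) and in 6 of 9 type I genes (66.7%). A GAS match was present in 11 of 33 members (33.3%), against 9.55% of all genes, among them 6 of 10 GTPases (60%) and 2 of 9 type I genes (22.2%). Without ISRE-like matches that overlapped a GAS match the count was again 22, and within 150 bases before the start it was 17 for the ISRE-like motif, against 4.61% of all genes, and 9 for GAS, against 4.77%. These are matches of letters only. Isg15 and Ifit1 are shown for the type I genes, Gbp2, Igtp, Irgm2, Tgtp1 and Tgtp2 for the GTPases and Irf1 for the transcription factors. Each is written 5′ to 3′ on the strand of the gene, and capitals mark the letters of either motif.
Isg15: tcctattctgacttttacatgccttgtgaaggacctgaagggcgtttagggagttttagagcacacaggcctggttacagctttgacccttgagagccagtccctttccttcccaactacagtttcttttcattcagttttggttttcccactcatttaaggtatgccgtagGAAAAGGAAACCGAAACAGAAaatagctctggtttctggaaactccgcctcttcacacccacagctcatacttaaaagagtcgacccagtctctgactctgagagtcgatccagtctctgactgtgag
Ifit1: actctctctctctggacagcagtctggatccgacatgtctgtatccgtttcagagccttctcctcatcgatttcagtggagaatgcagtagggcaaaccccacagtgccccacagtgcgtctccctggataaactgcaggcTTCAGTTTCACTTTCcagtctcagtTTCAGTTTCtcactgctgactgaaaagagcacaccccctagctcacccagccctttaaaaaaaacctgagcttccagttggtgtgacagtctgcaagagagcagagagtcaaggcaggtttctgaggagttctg
Gbp2: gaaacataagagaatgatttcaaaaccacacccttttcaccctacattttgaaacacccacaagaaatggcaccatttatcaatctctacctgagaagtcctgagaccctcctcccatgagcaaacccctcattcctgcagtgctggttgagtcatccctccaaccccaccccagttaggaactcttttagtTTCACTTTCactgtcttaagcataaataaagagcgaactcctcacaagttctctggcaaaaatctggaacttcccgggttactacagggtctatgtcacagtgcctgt
Igtp: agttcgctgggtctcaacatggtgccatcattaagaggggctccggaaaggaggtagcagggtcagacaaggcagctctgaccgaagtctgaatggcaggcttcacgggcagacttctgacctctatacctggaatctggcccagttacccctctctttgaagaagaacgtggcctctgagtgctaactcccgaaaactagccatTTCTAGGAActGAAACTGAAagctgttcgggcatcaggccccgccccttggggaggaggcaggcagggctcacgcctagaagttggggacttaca
Irgm2: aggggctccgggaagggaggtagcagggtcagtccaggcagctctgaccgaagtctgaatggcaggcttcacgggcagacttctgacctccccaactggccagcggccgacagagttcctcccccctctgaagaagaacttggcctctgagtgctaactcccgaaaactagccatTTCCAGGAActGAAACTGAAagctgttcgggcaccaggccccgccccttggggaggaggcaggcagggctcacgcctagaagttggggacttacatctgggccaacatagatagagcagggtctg
Tgtp1: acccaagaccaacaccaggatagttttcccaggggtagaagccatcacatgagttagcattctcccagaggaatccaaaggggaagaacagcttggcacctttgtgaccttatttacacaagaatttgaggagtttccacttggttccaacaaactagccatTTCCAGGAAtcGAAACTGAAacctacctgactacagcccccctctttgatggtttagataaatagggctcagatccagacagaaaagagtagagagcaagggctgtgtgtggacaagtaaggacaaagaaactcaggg
Tgtp2: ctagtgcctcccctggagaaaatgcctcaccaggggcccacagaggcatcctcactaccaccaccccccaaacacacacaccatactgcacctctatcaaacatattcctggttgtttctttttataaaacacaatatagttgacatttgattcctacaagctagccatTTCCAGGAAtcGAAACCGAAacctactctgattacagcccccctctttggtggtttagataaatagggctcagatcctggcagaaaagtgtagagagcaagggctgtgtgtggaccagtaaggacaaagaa
Irf1: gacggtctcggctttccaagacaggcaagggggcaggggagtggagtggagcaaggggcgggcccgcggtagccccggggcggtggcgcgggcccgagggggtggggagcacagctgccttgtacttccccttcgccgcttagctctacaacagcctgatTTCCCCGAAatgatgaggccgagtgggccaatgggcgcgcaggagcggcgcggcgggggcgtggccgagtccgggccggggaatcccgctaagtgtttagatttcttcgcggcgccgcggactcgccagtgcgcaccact

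The Isg15 promoter (chr4:156200769-156201068, minus strand) held 3 overlapping ISRE-like matches, which began 78, 72 and 66 bases before the start. That of Ifit1 (chr19:34640639-34640938, plus strand) also held 3, at 109, 103 and 84 bases before the start, and neither held a GAS match. That of Gbp2 (chr3:142620413-142620712, plus strand) held 1 ISRE-like match at 58 bases before the start. That of Irf1 (chr11:53769764-53770063, plus strand) held a GAS match at 90 bases before the start and no ISRE-like match. Both motifs stood together in 8 members, against 334 of all genes (1.24%). In 4 of the immunity-related GTPases, all on chromosome 11, the GAS match began 11 bases before an ISRE-like match: Igtp (chr11:58199306-58199605, plus strand, at 45 and 34 bases before the start), Irgm2 (chr11:58214727-58215026, plus strand, at 75 and 64), Tgtp1 (chr11:48992197-48992496, minus strand, at 88 and 77) and Tgtp2 (chr11:49064163-49064462, minus strand, at 81 and 70). This arrangement was singled out after the sequences were seen. It was the closest pair of the 2 motifs in 9 of 32851 promoters (0.0274%), and 4 of those 9 were these members. The promoters are related in sequence, since Igtp and Irgm2 shared an unbroken run of 61 bases and Tgtp1 and Tgtp2 one of 27 bases.

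The authors deposited RPM, reads per 1000000 reads, and whole counts could be recovered from them. The libraries held 388902 to 1087675 counts, so a count of 0 allows up to 2.03 to 6.83 RPM per library (3 counts), a limit that covers counting error only. In Acly KO cells Acly was at 10.6 to 15.0 RPM after activation, against 104 to 111 RPM in activated WT cells, while resting levels overlapped. Pdha1 was at 30.4, 27.4 and 20.0 RPM in activated KO cells, against 84.7, 40.8 and 5.35 RPM in activated WT cells. The overlap in activated cells rested on the third WT library, and the other 2 WT libraries lay above all 3 KO libraries. Resting Pdha1 levels overlapped, at 7.33, 0 and 25.9 RPM in KO and 6.78, 3.14 and 6.01 RPM in WT cells. All 10 CD4 T cell markers chosen were detected in every library, at a summed 298 to 2622 RPM in activated and 177 to 1093 RPM in resting libraries. Olfactory and vomeronasal receptor genes, families with no known role in T cells, were summed as a measure of background and came to 30101 to 40962 RPM in activated and 95330 to 109575 RPM in resting Acly libraries, and 26381 to 108363 RPM in Pdha1 libraries.

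The labels of 2 Pdha1 libraries went against their content. The library labelled Pdha1 WT activated 3 held Ifng at 0 RPM and Gbp2 at 8.57 RPM, with a receptor sum of 105375 RPM. The library labelled Pdha1 KO resting 3 held Ifng at 125 RPM and Gbp2 at 173 RPM, with a receptor sum of 66286 RPM. Pdha1 WT activated 1 had the lowest depth and the lowest receptor sum of all libraries. Tests of Pdha1 libraries are therefore given with all libraries and without the first 2.

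Activation raised most of the GTPases in the Acly cohort in cells of both genotypes, while no type I gene passed as higher and some fell. On the log2(RPM + 0.5) scale, used for every change given here and one that understates changes of low genes, 19 of 46 members were higher and 7 lower in activated than in resting KO cells (limma, adjusted p under 0.05). In WT cells 19 were higher and 9 lower. Over all 31311 genes tested, 20.7% were higher and 26.7% lower in KO cells, and 21.4% were higher and 23.8% lower in WT cells. Of the 15 GTPases, 12 rose in KO and 11 in WT cells and none fell, with a median change of 1.97 in KO and 1.94 in WT cells, against −0.67 in KO and −0.61 in WT cells for all genes. Of the 11 type I genes tested, 4 fell in KO and 5 in WT cells and none rose, with a median of −0.57 in KO and −1.41 in WT cells. With a scaling in the manner of TMM, which moved the median of all genes to −0.40 in KO and −0.33 in WT cells, 23 members were higher and 5 lower in KO cells, where 24.3% of all genes were higher and 16.8% lower. In WT cells 22 members were then higher and 5 lower, where 24.6% of all genes were higher and 15.7% lower. As these are bulk libraries, a change in the number of cells that express a gene and a change in RNA per cell cannot be told apart.

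Gbp2, a guanylate-binding protein recruited to pathogen vacuoles, changed most. Its levels were 489, 586 and 506 RPM in activated KO cells, against 6.86, 2.13 and 1.26 RPM in resting KO cells. In WT cells they were 371, 486 and 380.2 RPM after activation, against 5.80, 2.82 and 5.96 RPM at rest. Activated and resting libraries did not come near each other, and the log2 change was 7.34 ± 0.36 (limma, adjusted p = 8.4e-17) in KO and 6.32 ± 0.36 (limma, adjusted p = 3.54e-15) in WT cells. Igtp, the GTPase also called Irgm3, had 338, 365 and 341 RPM in activated KO cells, against 11.4, 7.45 and 6.30 RPM in resting KO cells. WT cells had 328, 409.9 and 341 RPM of Igtp after activation, against 4.64, 12.7 and 2.98 RPM at rest. Every activated library lay far above every resting one, with a change of 5.33 ± 0.33 (limma, adjusted p = 6.13e-16) in KO and 5.86 ± 0.33 (limma, adjusted p = 4.77e-17) in WT cells. Ifi47, an immunity-related GTPase and the member with the most RPM, was at 923, 1070.2 and 883 RPM in activated KO cells and already at 36.7, 33.1 and 27.8 RPM in resting KO cells. Its WT levels were 859, 1148 and 813 RPM after activation, against 43.1, 48.1 and 25.4 RPM at rest. Its changes were 4.86 ± 0.23 (limma, adjusted p = 2.96e-20) in KO and 4.61 ± 0.23 (limma, adjusted p = 1.63e-19) in WT cells.

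**Figure D1:**
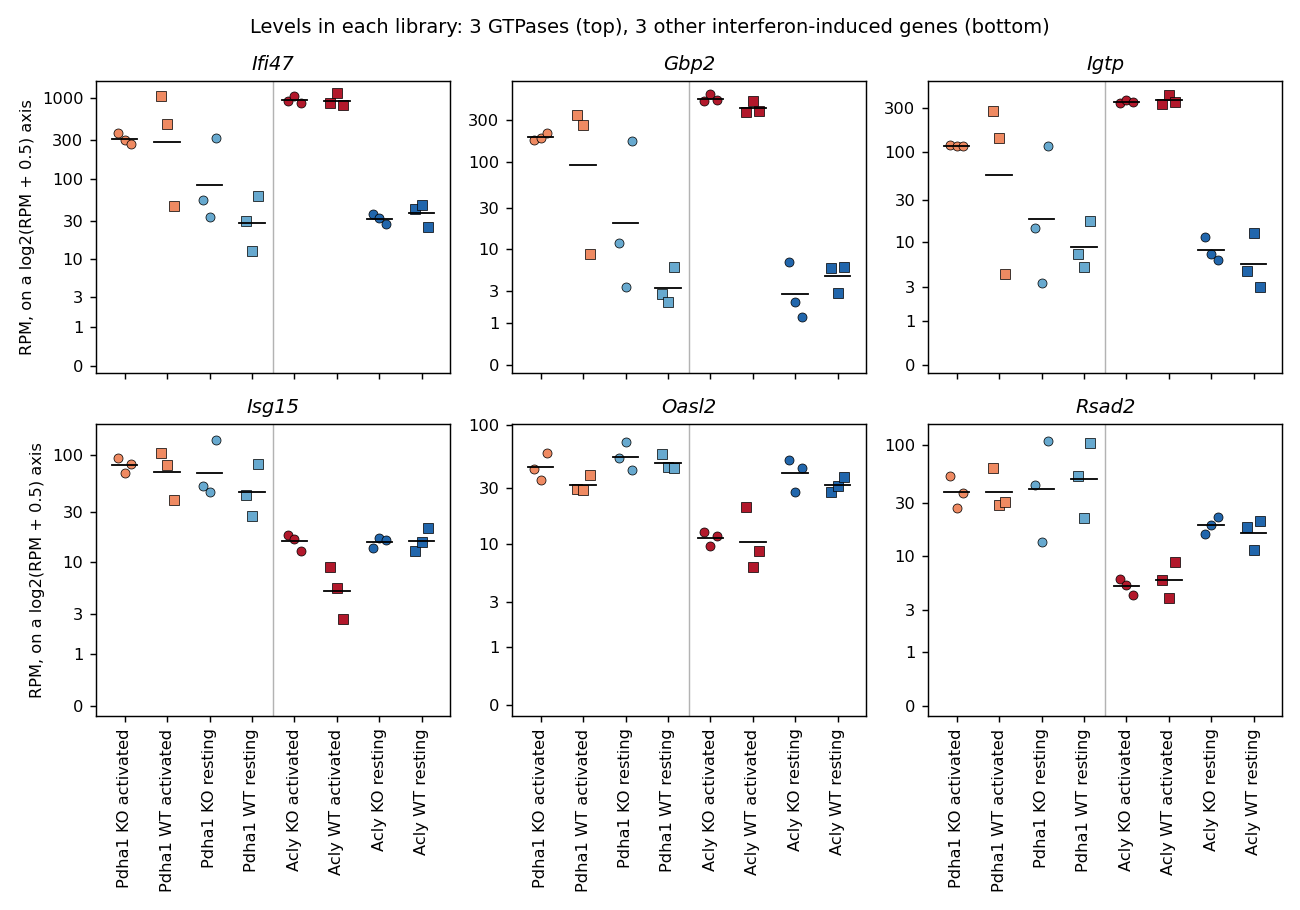
Levels (RPM, on a log2(RPM + 0.5) axis) of the 3 GTPases and 3 interferon-induced antiviral genes in each of the 24 libraries, by cohort, genotype and state, with KO as circles, WT as squares and bars at the group means on that scale. In the Acly cohort Ifi47, Gbp2 and Igtp separate activated from resting libraries, while Oasl2 and Rsad2 are lower after activation and Isg15 is lower after activation in WT cells (2.64 to 8.98 RPM against 12.8 to 20.9 RPM at rest).

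The near-identical genes Tgtp1 and Tgtp2, T cell-specific GTPases between which reads may be split unreliably, rose together. Tgtp1 stood at 84.9, 101 and 98.3 RPM in activated KO cells, against 0, 4.26 and 5.04 RPM in resting KO cells. WT cells held 84.6, 115 and 87.3 RPM of it after activation, against 3.48, 7.05 and 4.47 RPM at rest. The changes of Tgtp1 were 5.33 ± 0.72 (limma, adjusted p = 6.89e-05) in KO and 4.17 ± 0.72 (limma, adjusted p = 0.000513) in WT cells, and those of Tgtp2 were 4.26 ± 0.33 (limma, adjusted p = 5.98e-14) in KO and 4.06 ± 0.33 (limma, adjusted p = 2.63e-13) in WT cells. Gbp3, Irgm2, Iigp1, Gbp4, Gbp7 and Gbp5 also rose in cells of both genotypes, by 0.96 (Gbp5) to 2.51 (Gbp3) in KO and by 1.26 (Gbp5) to 3.08 (Gbp3) in WT cells. Gbp5 promotes inflammasome assembly, and its call was the least stable of these, being lost under 9 of 22 alternative settings in KO and 2 of 22 in WT cells. Gbp8 passed the test in KO cells, at 1.15 ± 0.44 (limma, adjusted p = 0.0313), and not in WT cells, at 1.01 ± 0.44 (limma, adjusted p = 0.0603). Gbp9, Gbp6 and Irgm1, a regulator of the other immunity-related GTPases, passed in neither, with WT changes of 1.36, 0.13 and 0.33. The difference between KO and WT cells was tested for every member as an interaction, given further on.

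The genes lie in clusters and some overlap, and the use of strand in counting is not given in the sources used here. Gbp2, Gbp3, Gbp5 and Gbp7 are on chromosome 3, Gbp4, Gbp6, Gbp8 and Gbp9 on chromosome 5, Iigp1 on chromosome 18 and the other immunity-related GTPases on chromosome 11. In GENCODE, Gbp4, Gbp8 and Gbp9 overlap on 1 strand, as do Igtp and Irgm2, and Ifi47 and the olfactory gene Olfr56. So do Irf9 and Rnf31, Tgtp1 and Gm12185, and Gbp6 and Gm43302. Values of the lower gene of each group are uncertain. Irf9, at a mean of 25.2 RPM over all libraries, was lower than Rnf31, at 33.5 RPM. On the opposite strand Irf7 overlaps Phrf1, Rtp4 overlaps Masp1 and Parp9 overlaps Dtx3l.

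Among the type I genes, the clearest falls were in the oligoadenylate synthetase family. Oas3, which makes the oligoadenylates that switch on RNase L, had 2.27, 3.53 and 4.28 RPM in activated KO cells, against 13.7, 9.58 and 13.9 RPM in resting KO cells. WT cells had 5.98, 1.58 and 11.5 RPM of it after activation, against 23.2, 15.5 and 26.8 RPM at rest. All activated libraries were below all resting libraries of their genotype, with a change of −1.76 ± 0.52 (limma, adjusted p = 0.00512) in KO and −2.00 ± 0.52 (limma, adjusted p = 0.00164) in WT cells. Oasl2, an oligoadenylate synthetase-like protein, was at 12.9, 9.71 and 11.8 RPM in activated KO cells, against 51.7, 27.7 and 44.3 RPM at rest. In WT cells it was at 21, 6.32 and 8.81 RPM after activation, against 27.9, 31.1 and 37.3 RPM at rest. Again the states did not overlap within a genotype, and the changes were −1.77 ± 0.38 (limma, adjusted p = 0.000189) in KO and −1.55 ± 0.38 (limma, adjusted p = 0.000942) in WT cells. Oasl1 was at 0 in all 3 activated KO libraries and summed to 9 counts in the resting ones, which makes it at least 3.9-fold lower against a floor of 3 counts over the group (limma, adjusted p = 0.00811).

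Isg15, a ubiquitin-like protein that is attached to other proteins, had 18.2, 16.8 and 12.8 RPM in activated KO cells, against 13.7, 17.1 and 16.4 RPM in resting KO cells. It had 8.98, 5.53 and 2.64 RPM in activated WT cells, against 12.8, 15.5 and 20.9 RPM in resting WT cells. The KO states overlapped and the WT states did not, with changes of 0.01 ± 0.42 (limma, adjusted p = 0.99) in KO and −1.55 ± 0.42 (limma, adjusted p = 0.00275) in WT cells. The call in WT cells was lost with edgeR and with DESeq2, at the same sign. Ifi44, of little known function, fell by 1.30 on the log2 scale in KO (limma, adjusted p = 0.0293) and by 1.71 in WT cells (adjusted p = 0.00495), with 2.37 to 8.98 RPM in activated and 8.46 to 20.9 RPM in resting WT cells. Mx1, a dynamin-like GTPase that blocks viruses in the nucleus in mice, had 0.997, 1.58 and 6.17 RPM in activated WT cells, against 10.4, 5.64 and 7.45 RPM in resting WT cells. These overlapped, and its WT change of −1.56 ± 0.65 (limma, adjusted p = 0.0465) was lost under 11 of 22 alternatives. Ifit1, Ifit2 and Ifit3, which bind viral RNA or each other, passed in neither genotype, with WT changes of 0.00 for Ifit1 and −0.33 for Ifit2. Ifit3 rested on 3 counts in activated and 1 count in resting WT cells, a ratio of 1.98 with a counting interval of 0.159 to 104. Oas1a and Oas2 had at most 2 counts in every Acly group. With genes at 1 to 3 counts or less taken at their bound or left out, the type I median was −0.73 over 10 genes in KO and −1.55 over 9 genes in WT cells, and that of the GTPases did not move.

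The receptor genes set a scale for these falls. In the same fits, 768 of 1296 receptor genes were lower and 4 higher in activated than in resting KO cells, with a median of −1.62, and 733 were lower and 6 higher in WT cells, with a median of −1.52. The WT changes of Isg15, Oasl2, Mx1, Ifih1, Ifi44 and Oas3 (−1.55 to −2.00) lay at or somewhat below the median of receptor genes. Those of Rsad2, Xaf1 and Ddx58, the other members called lower in WT cells, lay above it. The median of the type I genes lay above that of the receptor genes in both genotypes. With genes at few counts taken at their bound or left out, it was −0.73 in KO cells, still above. In WT cells it was then −1.55, slightly below the receptor median. The part of the receptor gene shift in the type I result was not tested.

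Of the sensors, Zbp1, which detects Z-form nucleic acids and triggers necroptosis, rose by 2.75 ± 0.43 (limma, adjusted p = 1.14e-06) in KO and 1.54 ± 0.43 (limma, adjusted p = 0.00312) in WT cells. Ifih1 (MDA5), a sensor of long viral RNA, had 4.53, 11.5 and 15 RPM in activated KO cells, against 17.2, 9.58 and 22.7 RPM at rest, and 7.98, 5.53 and 2.64 RPM in activated WT cells, against 12.8, 12.7 and 25.4 RPM at rest. It did not pass in KO cells, at −0.72 ± 0.48 (limma, adjusted p = 0.214), and was lower in WT cells, at −1.61 ± 0.48 (limma, adjusted p = 0.00613). Ddx58 (RIG-I), a sensor of short viral RNA, had 6.80, 4.41 and 9.63 RPM in activated KO cells, against 19.5, 27.7 and 21.5 RPM at rest, and 15, 3.95 and 13.2 RPM in activated WT cells, against 22.1, 14.1 and 26.8 RPM at rest. It fell by 1.70 in KO cells (limma, adjusted p = 0.00164), without overlap of the states. Its WT states overlapped, and its WT call (adjusted p = 0.041, limma) was lost under 9 of 22 alternatives. Dhx58 (LGP2), a regulator of both, passed in neither genotype.

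Among the transcription factors and feedback genes, Irf1, a factor directly induced by interferon gamma, rose. It had 175, 137 and 150.02 RPM in activated KO cells, against 6.86, 19.2 and 17.7 RPM in resting KO cells, and the WT ranges were 141 to 164 RPM after activation and 10.4 to 20.9 RPM at rest. The changes of Irf1 were 3.48 ± 0.32 (limma, adjusted p = 5.01e-12) in KO and 3.31 ± 0.32 (limma, adjusted p = 2.02e-11) in WT cells. Usp18, which takes Isg15 off proteins and dampens the type I receptor, passed narrowly. It rested on 9 counts in activated and 1 count in resting KO cells, and on 11 and 2 counts in WT cells. Scaled to depth, the ratios of these counts were 6.92 (counting interval 0.958 to 303) in KO and 3.62 (0.791 to 33.6) in WT cells. Its call was lost under 11 of 21 alternatives in KO and 13 of 21 in WT cells. Irf7, Irf9 and Stat2, factors of the type I response, passed in neither genotype.

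Of the other members, Bst2 (tetherin), which holds budding viruses at the cell surface, rose most. It had 36.4, 30.1 and 36.5 RPM in activated KO cells, against 0, 2.13 and 0 RPM in resting KO cells. The resting KO libraries held 2 counts in all, so the KO ratio was 44.6 with a counting interval of 12.1 to 372 (limma, adjusted p = 7.62e-11). In WT cells it had 80.5, 42.9 and 46.1 RPM after activation, against 2.32, 4.23 and 1.49 RPM at rest, a change of 4.20 ± 0.54 (limma, adjusted p = 2.39e-08). Tap1, the transporter that feeds peptides to MHC class I, rose by 3.06 ± 0.35 (limma, adjusted p = 1.22e-09) in KO and 3.00 ± 0.35 (limma, adjusted p = 2.1e-09) in WT cells, and it overlaps Psmb9 on the opposite strand. Ifi35 rose by 2.90 ± 0.52 (limma, adjusted p = 1.39e-05) in KO and 2.56 ± 0.52 (limma, adjusted p = 9.1e-05) in WT cells. Parp9 and Parp14, ADP-ribosyltransferases, passed in WT but not in KO cells, and Trim30a in KO but not in WT cells, and none of the 3 passed the test of the interaction. Rsad2 (viperin), a radical enzyme that makes an antiviral nucleotide, had 6.04, 5.29 and 4.28 RPM in activated KO cells, against 16, 19.2 and 22.7 RPM at rest, and 5.98, 3.95 and 8.81 RPM in activated WT cells, against 18.6, 11.3 and 20.9 RPM at rest. It fell in both, with changes of −1.79 ± 0.44 (limma, adjusted p = 0.000931) in KO and −1.39 ± 0.44 (limma, adjusted p = 0.0094) in WT cells. Xaf1, which promotes apoptosis, fell by 1.05 in KO (limma, adjusted p = 0.027) and by 1.06 in WT cells (adjusted p = 0.0272). Dtx3l, Samd9l and Rtp4 passed in neither genotype.

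**Figure D2:**
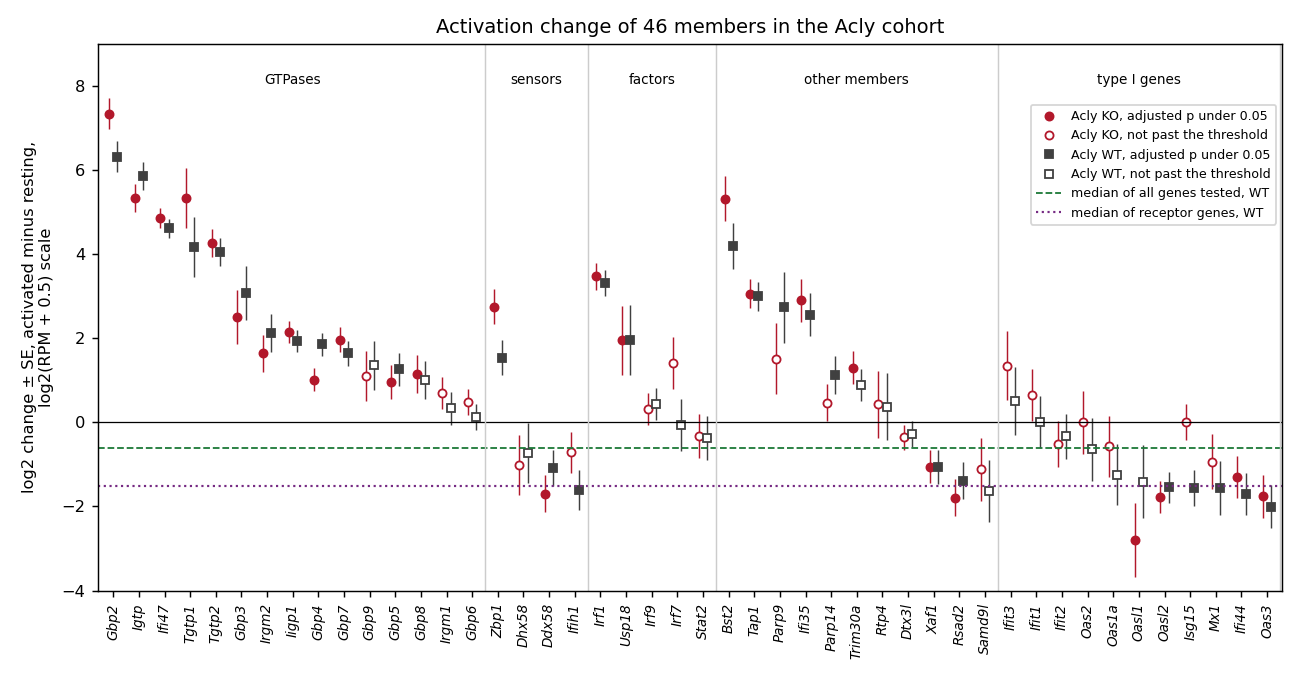
Log2 change on activation, with its SE, of the 46 tested members in Acly KO (circles) and Acly WT (squares) cells, filled where the adjusted p was under 0.05. The GTPases lie above 0 (up to 7.34 for Gbp2 in KO cells), most type I genes lie below 0, and the dashed and dotted lines show the WT medians of all genes (−0.61) and of receptor genes (−1.52).

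Per library, the 2 kinds of gene moved apart. The summed GTPases reached 2435 to 2704 RPM in activated KO and 2162 to 2846 RPM in activated WT cells, against 232 to 271 RPM in resting KO and 225 to 282 RPM in resting WT cells. The summed type I genes were at 50.7 to 55.6 RPM in activated KO and 28.4 to 53.9 RPM in activated WT cells, against 90.6 to 119 RPM in resting KO and 87.5 to 136 RPM in resting WT cells. The ratio of GTPase to type I sums was thus 43.8 to 51.1 in activated KO and 41.9 to 100 in activated WT cells, against 2.22 to 2.56 in resting KO and 2.08 to 2.57 in resting WT cells. The median change of the type I genes was 2.54 lower than that of the GTPases on the log2 scale in KO cells (2.97 with the TMM-style scaling) and 3.35 lower in WT cells (3.49).

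Levels of different genes were compared per length, as RPM per kb of exon, with the receptor genes as a background. Which part of each transcript was read is not given in the sources used here, so the scale is approximate. In activated cells Ifi47 was highest, at 388 RPM per kb in KO and 380 in WT, against 13.2 RPM per kb in resting KO and 15.7 in resting WT cells. Gbp2 reached 209 RPM per kb in activated KO and 164 in activated WT cells, against 1.36 in resting KO and 1.93 in resting WT cells. The 95th percentile of 1448 receptor genes was 8.76 RPM per kb in activated KO and 9.10 in activated WT cells, and 26.2 in resting KO and 25.7 in resting WT cells. In activated KO cells 14 members lay above it and in activated WT cells 12, in each 8 of them GTPases (Gbp2, Gbp4, Gbp7, Ifi47, Igtp, Iigp1, Tgtp1 and Tgtp2). Isg15 was the only type I gene above it, at 21.1 RPM per kb in activated KO cells, and it was at 7.56 RPM per kb, below it, in activated WT cells. No member exceeded this percentile in resting Acly cells of either genotype. There the type I genes had a median of 1.57 RPM per kb in KO and 1.68 in WT cells, against 1.85 and 1.76 for the receptor genes. Above the receptor median lay 4 of 12 type I genes and 10 of 15 GTPases in resting KO cells. In resting WT cells 6 of 12 type I genes and 12 of 15 GTPases did. The share of all genes above these levels is not given here, so whether the counts are particular to these members was not tested.

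**Figure D3:**
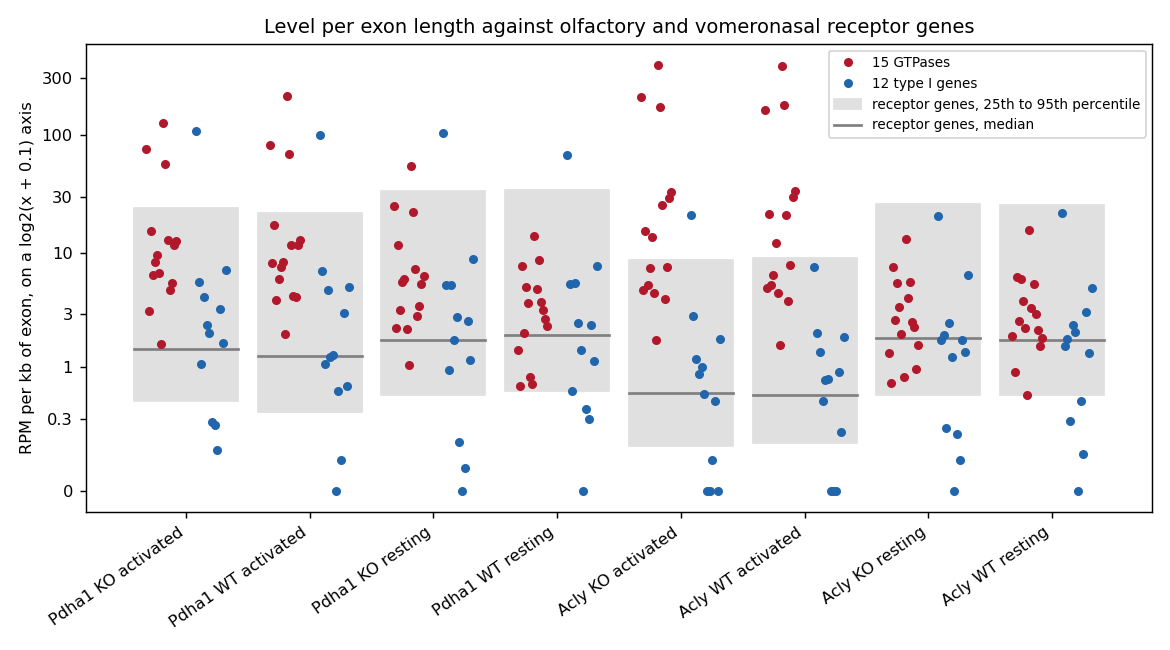
Mean level (RPM per kb of exon, on a log2(x + 0.1) axis) of each GTPase (red) and each type I gene (blue) in the 8 groups, over a grey box from the 25th to the 95th percentile of 1448 receptor genes with their median as a line. Of the 15 GTPases, 8 lie above the box in each activated Acly genotype and 3 in each activated Pdha1 genotype. Of the type I genes Isg15 alone lies above it, in activated Acly KO cells and in every Pdha1 group.

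The genes around these members were read from lists of ligands, receptors, signalling factors, inhibitors and further targets. Of 3 ligands tested, Ifng alone passed. It had 34.9, 32.8 and 35.4 RPM in activated KO cells, against 1.14, 0 and 0 RPM at rest, and 47.1, 46.9 and 46.9 RPM in activated WT cells, against 0 in every resting WT library (limma, adjusted p = 2.09e-10 in KO and 2.8e-12 in WT cells). Of 10 receptors, 2 rose and 4 fell in KO cells, and 2 rose and 3 fell in WT cells. Il27ra and Il12rb1, receptor chains for cytokines that favour interferon gamma, rose by 1.99 and 1.34 in WT cells (adjusted p = 0.00022 and 0.00186, limma). Ifngr1, the ligand-binding chain of the gamma receptor, had 10.6 to 12.4 RPM in activated KO cells, against 27.5 to 46 RPM at rest. It fell to 18, 14.2 and 6.17 RPM in activated WT cells, against 52.5, 39.6 and 22.4 RPM at rest, a change of −1.58 ± 0.38 (limma, adjusted p = 0.000768). Il18r1, a receptor chain for interleukin 18, fell by 1.51 in WT cells (limma, adjusted p = 0.000228). Ifnar1, a chain of the type I receptor, had 8.56 to 12.9 RPM in activated KO cells, against 16 to 34.4 RPM at rest. It had 13, 7.90 and 14.1 RPM in activated WT cells, against 31.4, 21.2 and 41.8 RPM at rest, a change of −1.38 ± 0.38 (limma, adjusted p = 0.00302), and these 3 WT falls were near the olfactory and vomeronasal genes' median of −1.52.

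Of 14 signalling factors, 9 rose and none fell in cells of either genotype. Irf8, a factor of the same family as Irf1, and the kinase Jak2 were the largest rises, with 353 to 479.6 and 66.6 to 81.5 RPM in activated WT cells, against 1.16 to 4.47 and 5.80 to 17.9 RPM in resting WT cells. Of 9 inhibitors, 7 rose in KO and 6 in WT cells and none fell. They were led by Socs1, which blocks Jak kinases, with 232 to 344 RPM in activated and 5.96 to 15.5 RPM in resting WT cells, and by the phosphatase Ptpn6, with 201 to 250.1 RPM in activated and 4.47 to 16.9 RPM in resting WT cells. Of 63 further targets, 25 rose and 12 fell in KO cells, and 21 rose and 13 fell in WT cells. Among all genes tested, 20.7% were higher and 26.7% lower in KO cells, and 21.4% higher and 23.8% lower in WT cells. Ifitm2, which blocks viral entry, had 14.1 to 33 RPM in activated WT cells and was listed at 0 in resting ones, and Lgals3bp, a secreted glycoprotein, had 42.5 to 46.1 RPM in activated and 0 to 2.82 RPM in resting WT cells. Ifit1bl1 and Ddx60, a helicase, were the largest falls, with 0 to 0.789 and 0 to 3.52 RPM in activated WT cells, against 4.23 to 6.96 and 9.28 to 14.9 RPM in resting WT cells.

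No member passed the threshold between Acly KO and WT cells. In activated cells 0 of 46 members passed for KO against WT (limma, 1 member with an unadjusted p under 0.05), where 2 of 31311 genes did (0.00639%). In resting cells 0 members passed (2 with an unadjusted p under 0.05), where 0% of all genes did. The interaction of genotype and activation gave 0 members (2 with an unadjusted p under 0.05) and 0% of all genes. Of all 31311 genes, 1087 in activated cells, 1745 at rest and 1313 in the interaction had an unadjusted p under 0.05. edgeR, DESeq2 and the fit with the replicate block also gave 0 members in each of these. The KO against WT medians in activated cells were 0.10 for the type I genes and 0.00 for the GTPases, against −0.05 for all genes, and at rest they were −0.04 and −0.15, against 0.02.

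Isg15 came closest in activated cells. The activated KO libraries, at 18.2, 16.8 and 12.8 RPM, all lay above the activated WT libraries, at 8.98, 5.53 and 2.64 RPM, with means of 15.9 ± 2.76 RPM in KO and 5.72 ± 3.17 RPM in WT cells (SD, n = 3 each). The log2 difference was 1.53 ± 0.42, with an unadjusted limma p of 0.000819 and an adjusted p of 1.00. Over the alternative settings the adjusted p lay between 0.0783 and 1.00. At rest the means were 15.7 ± 1.77 RPM in KO and 16.4 ± 4.12 RPM in WT cells, and the interaction was 1.56 ± 0.60 (limma, adjusted p = 1.00). The other members named by the smallest p were Ifih1, at 0.85 ± 0.48 (limma, adjusted p = 1.00), and Gbp4, a guanylate-binding protein, with 130.3, 97.4 and 118 RPM in activated KO and 150.2, 184 and 148 RPM in activated WT cells, at −0.48 ± 0.27 (limma, adjusted p = 1.00). For Gbp4 every KO library was below every WT library, and for Ifih1 the genotypes overlapped.

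At rest the smallest p belonged to Bst2, which had 0, 2.13 and 0 RPM in KO and 2.32, 4.23 and 1.49 RPM in WT cells, at or below the floor of 3 counts per library. Irf7, a factor that amplifies type I interferon production, had 2.28, 1.06 and 1.26 RPM in resting KO and 4.64, 5.64 and 4.47 RPM in resting WT cells, with every KO library lower. Its difference of −1.45 ± 0.61 (limma, adjusted p = 0.739) did not pass. Gbp2 differed by −0.66 ± 0.36 (limma, adjusted p = 0.936) at rest, with overlapping genotypes. In the genes around the members none of the 5 lists held a gene past the threshold in any comparison of KO with WT. Ifng had the opposite order to Isg15, with every activated KO library below every activated WT library, and did not pass (limma, adjusted p = 1.00). Thy1, a CD4 T cell marker and 1 of the 2 genes past the threshold, was lower in activated KO cells, at 179, 157 and 161 RPM, than in activated WT cells, at 472, 415 and 331 RPM. Its part in these values was not tested.

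No member passed the threshold between Pdha1 KO and WT cells either. In activated cells 0 of 46 members passed for KO against WT (limma, 0 with an unadjusted p under 0.05), as did 0% of 30357 genes, and in resting cells 0 passed (2 with an unadjusted p under 0.05), beside 0% of all genes. The interaction gave 0 members (1 with an unadjusted p under 0.05) and 0% of all genes, and edgeR and DESeq2 gave 0 members in each. Of the 30357 genes, 856 in activated cells, 636 at rest and 701 in the interaction had an unadjusted p under 0.05. The smallest p in activated cells belonged to Ifi44, with 14.1, 14.5 and 15.2 RPM in KO and 2.28, 7.73 and 12.9 RPM in WT cells, every KO library being higher, at 1.16 ± 0.60 (limma, adjusted p = 1.00). Gbp5 had 41.6, 44.7 and 44.2 RPM in activated KO and 27.4, 41.7 and 9.64 RPM in activated WT cells, and Oasl1 had 8.13, 1.71 and 3.19 RPM in activated KO and 0, 0.966 and 4.28 RPM in activated WT cells. Neither Gbp5, at 0.94 ± 0.53 (limma, adjusted p = 1.00), nor Oasl1, at 1.44 ± 0.89 (limma, adjusted p = 1.00), passed. At rest Tap1 had 15.4, 10.1 and 40.6 RPM in KO and 7.46, 3.14 and 12 RPM in WT cells. Tgtp2 had 12.5, 11.8 and 31.9 RPM in resting KO and 8.82, 4.18 and 7.51 RPM in resting WT cells. Dhx58 had 5.13, 15.2 and 7.74 RPM in resting KO and 3.39, 2.09 and 5.26 RPM in resting WT cells, a difference of 1.22 ± 0.67 (limma, adjusted p = 1.00). For Tap1 and Tgtp2 the highest KO value was that of KO resting 3, and their differences were 1.42 ± 0.60 (limma, adjusted p = 1.00) and 1.30 ± 0.55 (limma, adjusted p = 1.00).

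Without the 2 Pdha1 libraries that went against their labels, again 0 members of 45 tested passed between KO and WT cells. In activated cells 3 members then had an unadjusted p under 0.05, where 0.00689% of 29032 genes passed, and 5110 genes had an unadjusted p under 0.05, against 856 with all libraries. The 3 were Ifi44, at 1.66 ± 0.57 (limma, adjusted p = 0.232), Oasl1, at 2.27 ± 0.86 (limma, adjusted p = 0.237), and Ifi47, at −1.18 ± 0.53 (limma, adjusted p = 0.267). Gbp5 was at 0.36 ± 0.39 (limma, adjusted p = 0.625) in activated cells. At rest no member had an unadjusted p under 0.05, where 0.00344% of genes passed, with Tap1 at 0.87 ± 0.50 (limma, adjusted p = 1.00) and Tgtp2 at 0.84 ± 0.42 (limma, adjusted p = 1.00). The interaction gave 4 members with an unadjusted p under 0.05 (Ifi44, Ifi47, Tgtp2 and Gbp2, one of the genes by which the 2 libraries were left out), where 0.00689% of genes passed. An unadjusted p under 0.05 was then found for 2387 of 29032 genes in the interaction. The 2 libraries were left out after their values of Ifng and Gbp2 were seen. The p-values of Gbp2 and the other GTPases therefore describe the remaining libraries only and are no test of genotype or of the interaction. Activated WT then held 2 libraries, and no member's call changed.

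Activation in the Pdha1 cohort, with all libraries, gave 0 of 46 members in KO cells (limma, 2 with an unadjusted p under 0.05) and 0 in WT cells (11 with an unadjusted p under 0.05), and 0% of all genes in each. Of all 30357 genes, 873 in KO and 4315 in WT cells had an unadjusted p under 0.05. edgeR also gave 0 in both, and DESeq2 gave 0 in KO cells, where 0.00329% of genes were higher, and 9 in WT cells, all higher, where 6.26% of genes were higher and 0.0725% lower. Without the 2 libraries that went against their labels, 10 members were higher and 0 lower in activated KO cells, against 7% of genes higher, and 16 were higher and 1 (Ifi44) was lower in activated WT cells, against 14.9% of genes higher and 12.1% lower. GTPases made up 7 of the 10 and 11 of the 16. These libraries were left out after their values of Ifng and Gbp2 were seen, and Gbp2 is itself a GTPase. The counts and the share of GTPases in them therefore describe the remaining 10 libraries only and are no test of activation. With all libraries Gbp2 had 179, 188 and 211 RPM in activated KO cells, against 11.7, 3.38 and 173 RPM at rest, and 341, 266 and 8.57 RPM in activated WT cells, against 2.71, 2.09 and 6.01 RPM at rest. Without them its log2 change was 4.80 in KO and 6.32 in WT cells, given with no test because Gbp2 was among the genes by which they were left out.

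Ifi47 had 370.04, 303 and 272 RPM in activated KO cells, against 54.7, 33.8 and 321 RPM at rest, and 1052, 479.8 and 46.3 RPM in activated WT cells, against 29.96, 12.6 and 61.4 RPM at rest. Igtp had 118, 115 and 115 RPM in activated KO cells, against 14.7, 3.38 and 116 RPM at rest, and 273, 139.5 and 4.28 RPM in activated WT cells, against 7.46, 5.23 and 17.3 RPM at rest. In each case the third library of WT activated sat among the resting values and the third of KO resting among the activated ones. The summed GTPases were at 1033 to 1213 RPM in activated KO cells, against 279 and 366 RPM in KO resting 2 and 1 and 1003 RPM in KO resting 3. In WT cells the sums were 1396 and 2390 RPM after activation and 280 RPM in WT activated 3, against 228 to 339 RPM at rest. The summed type I genes were at 165 to 233 RPM in activated KO and 190 to 230 RPM in resting KO cells. In WT cells the type I sums were 176 to 177 RPM after activation and 135 to 209 RPM at rest. The near-equal sums of activated WT cells covered opposite moves of single genes. Across these libraries in order, Isg15 had 105, 81.9 and 38.7 RPM, while Oas3 had 13.7, 23.2 and 27.9 RPM.

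**Figure D4:**
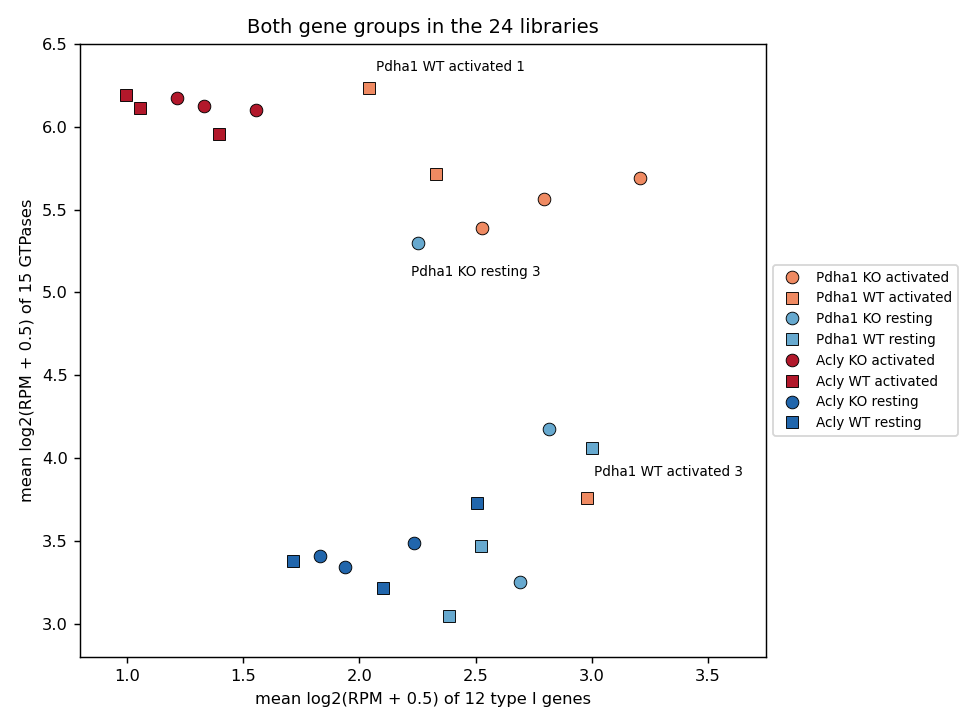
Mean log2(RPM + 0.5) of the 12 type I genes (x axis) and of the 15 GTPases (y axis) in each of the 24 libraries, by cohort, genotype and state. Activated Acly libraries stand high on the GTPase axis and low on the type I axis, activated Pdha1 libraries stand further along the type I axis (2.04 to 3.21, against 1.00 to 1.55 in activated Acly libraries), and the named Pdha1 libraries WT activated 3 and KO resting 3 stand near the libraries of the other state.

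Of the 11 type I genes tested, 4 were higher in activated Pdha1 than in activated Acly WT cells and none was lower, a comparison added after the levels by group had been seen and made between WT cells only. In activated WT cells 8 of 46 members were higher and 1 was lower in the Pdha1 cohort (limma, all 24 libraries in 8 groups), where 2.33% of 35290 genes were higher and 2.28% lower. At rest 0 members passed (9 with an unadjusted p under 0.05, 0 by edgeR and 0 by DESeq2), as did 0% of all genes. An unadjusted p under 0.05 was found there for 2114 of all 35290 genes. The labels give no batch, so cohort, Cre line and any difference in handling cannot be told apart.

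Isg15 was at 105, 81.9 and 38.7 RPM in activated Pdha1 WT cells and at 8.98, 5.53 and 2.64 RPM in activated Acly WT cells, a difference of 3.63 ± 0.45 (limma, adjusted p = 1.39e-05). Rsad2 was at 61.7, 29.1 and 31.1 RPM in activated Pdha1 WT and 5.98, 3.95 and 8.81 RPM in activated Acly WT cells, with 2.59 ± 0.54 (limma, adjusted p = 0.00594). Neither gene overlapped between the cohorts. Oasl2 had 29.7, 29.1 and 38.7 RPM in activated Pdha1 WT and 21, 6.32 and 8.81 RPM in activated Acly WT cells, with 1.56 ± 0.39 (limma, adjusted p = 0.019). The others past the threshold were Samd9l, an antiviral protein of the cytoplasm, at 3.10 ± 0.74, Irf7 at 2.04 ± 0.53, Oas3 at 1.96 ± 0.52 and Ifit1 at 2.07 ± 0.57 (limma, adjusted p between 0.0141 and 0.0296). Rtp4, which limits type I signalling in mice, rested on 20 counts in activated Pdha1 WT and 2 counts in activated Acly WT cells, a ratio of 14.1 with a counting interval of 3.44 to 125 (limma, adjusted p = 0.0204). The member that was lower was Tgtp2, with 61.7, 39.8 and 12.9 RPM in Pdha1 and 87.6, 116 and 90.9 RPM in Acly cells, at −1.61 ± 0.46 (limma, adjusted p = 0.0361). The median was 1.37 for the type I genes and −0.80 for the GTPases, against 0.12 for all genes. The GTPase median rested in part on Pdha1 WT activated 3, with a mean log2(RPM + 0.5) of 3.76 over the 15 genes, against 6.24 and 5.71 in Pdha1 WT activated 1 and 2 and 5.96 to 6.19 in activated Acly WT libraries. Without the 2 Pdha1 libraries that went against their labels the medians were 1.24 for the type I genes and −0.39 for the GTPases, against 0.00 for all genes, and Tgtp2 no longer passed.

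The count rested on few libraries. It was 4 (Isg15, Rsad2, Samd9l and Irf7, all higher) without the 2 Pdha1 libraries that went against their labels, where 0.715% of all genes were higher. It was 3 without Acly WT activated 1, 2 without Acly WT activated 2, 18 without Pdha1 WT activated 1, 3 without Pdha1 WT activated 3 and 0 when only the groups compared were fitted. Isg15 kept its direction in every one of these and missed the threshold only in the last, with an adjusted p of 0.111 (limma). The share of all genes called with each library left out is not given here, so those counts cannot be told from a general change in calls.

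Over both genotypes, with 6 libraries of each cohort, all activated Pdha1 libraries lay above all activated Acly libraries for 8 members (Isg15, Ifit1, Ifit3, Oas3, Oasl2, Irf7, Rsad2 and Rtp4), as they did for 3.85% of all genes. They lay below them for 6 members (Gbp2, Igtp, Tgtp1, Tgtp2, Irf1 and Tap1), as for 6.37% of all genes. At rest the Pdha1 libraries lay above for 5 members (Isg15, Ifit1, Iigp1, Irf7 and Rtp4), against 0.204% of all genes, and below for 0 members, against 0.3%. Isg15 thus stood at 27.2 to 138 RPM in the 6 resting Pdha1 libraries and at 12.8 to 20.9 RPM in the 6 resting Acly libraries. Ifit3, at 6.78, 10.5 and 12 RPM in resting Pdha1 WT and 0, 0 and 1.49 RPM in resting Acly WT cells, had a ratio of 21.4 with a counting interval of 3.61 to 870 (limma, adjusted p = 0.284).

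**Figure D5:**
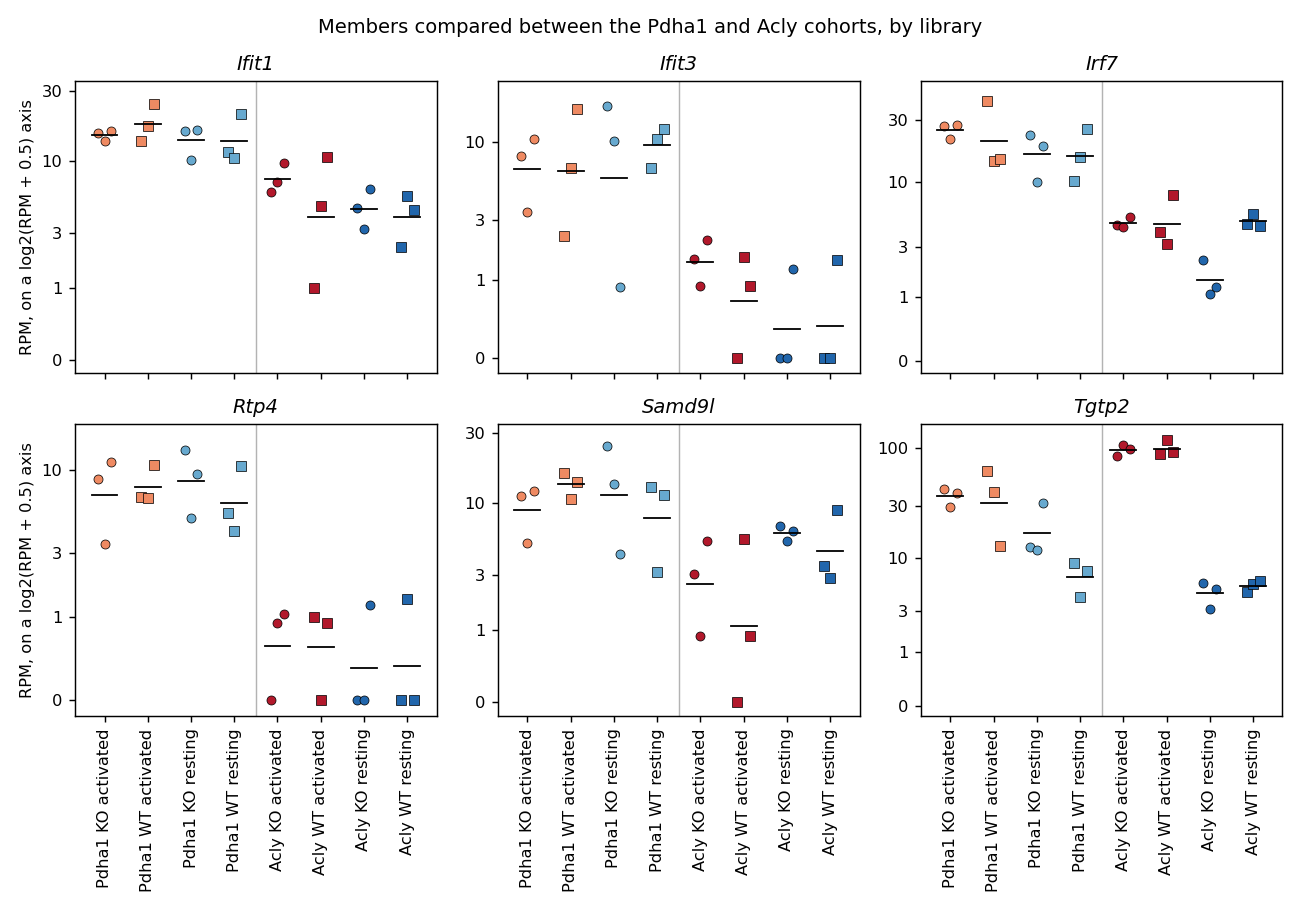
Levels (RPM, on a log2(RPM + 0.5) axis) of Ifit1, Ifit3, Irf7, Rtp4, Samd9l and Tgtp2 in each of the 24 libraries, by cohort, genotype and state, with KO as circles, WT as squares and bars at the group means on that scale. Irf7 and Rtp4 lie higher in every Pdha1 than in every Acly library of the same state (Rtp4 at 3.42 to 11.2 against 0 to 1.07 RPM in activated KO cells), and Tgtp2 lies lower in activated Pdha1 libraries.

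Other measures differed between the cohorts as well. In the same activated comparison 124 of 1441 receptor genes were higher in Pdha1 WT cells, with a median of 0.72, and at rest their median was 0.21. The activated median was 0.32, with 35 higher, without the 2 Pdha1 libraries that went against their labels, and 1.10, with 210 higher, when Pdha1 WT activated 1 was left out as well. The 10 CD4 T cell markers summed to 298 to 1594 RPM in activated Pdha1 and 1716 to 2622 RPM in activated Acly libraries, without overlap, the lowest being Pdha1 WT activated 3. The 6 erythroid and platelet markers summed to 407 to 19217 RPM in Pdha1 and 14.1 to 689 RPM in Acly libraries. The 4 plasmacytoid dendritic cell markers, of which Bst2 is also a member, summed to 116 to 197 RPM in activated Pdha1 and 69.0 to 127 RPM in activated Acly libraries. The 7 myeloid markers summed to 15.9 to 82.7 RPM in activated Pdha1 and 13.2 to 36.4 RPM in activated Acly libraries, and the 6 B cell markers to 31.9 to 74.4 RPM in activated Pdha1 and 10.3 to 34.2 RPM in activated Acly libraries. The 8 CD8 T and NK cell markers summed to 52.5 to 88.9 RPM in activated Pdha1 and 32.6 to 71.6 RPM in activated Acly libraries, with overlap. In activated libraries none of the plasmacytoid dendritic cell markers was at 0. Of the myeloid, of the B cell and of the CD8 T and NK cell markers, 0 to 3 each were at 0. The part of all these markers in the cohort difference was not tested. Among the 64 further targets, 5 were higher in activated Pdha1 WT cells (Cxcl9, Cxcl10, Ddx60, Ifi209 and Ifit3b) and 1 was lower (Ifitm2). Among all genes in that comparison, 2.33% were higher and 2.28% lower.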

How the data were processed

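Total RNA of CD4 T cells was prepared with a stranded kit and read over 75 bp from a single end, per the labels' protocols. The authors deposited RPM, with each library summing to 1000000. GRCm38 and mm10 are the builds named in the submitters' processing notes. The aligner is not given, nor are the counter and annotation, in the sources used here. Every value was a whole count, within 0.01, once a correction for collisions among 4096 molecular identifiers was undone. The labelled protocol names no such identifiers. All 24 columns were used.

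Symbols came from GENCODE M21 on GRCm38, which matched 46206 of 46981 identifiers. limma 3.58.1 (R 4.3.3, trend and robust) was run on log2(RPM + 0.5) for genes that reached 1 RPM in 3 or more of the fitted libraries, each cohort as 12 libraries in 4 groups, with Benjamini-Hochberg adjustment over all genes tested and a threshold of 0.05. Values after ± are SE unless SD is stated. edgeR 4.0.16 and DESeq2 1.42.0 were run on counts that kept the correction for collisions, rounded to whole numbers. These fits, the comparison of cohorts and the fits without Pdha1 libraries were added after seeing the data. Motifs and sums were computed in Python 3.11.15. The script was tested on simulated data.

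The members and the lists were chosen with earlier results of these data known. Genes named with values are Isg15, the 3 members with the smallest p in each comparison of KO with WT, the 4 largest rises and falls of each activation comparison among called members whose higher group averaged at least 5 RPM, the 3 highest type I genes and GTPases, and in the lists around them the 2 largest rises and falls in Acly WT cells with Ifng, Ifngr1 and Ifnar1. A further gene of this rule is not reported here. Other genes given with values were chosen after their values were seen.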

Additional observations from a re-analysis of the deposited data

How the results depend on the processing

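The alternatives were other pseudocounts, filters and scalings, only the groups compared, limma without trend and robust, a replicate block, edgeR, DESeq2 and leaving out each library or 2 or 3 Pdha1 libraries. No member named in the text changed its direction where it was called. Members called on activation of Acly cells numbered 21 to 27 in KO and 22 to 30 in WT cells when each library was left out. The comparisons of KO with WT and the interactions gave 0 throughout these. In the Pdha1 cohort the KO activation count was 0 when each library was left out, 10 without 2 libraries and 11 without 3. The WT count was 9 with DESeq2, 0 to 10 when each library was left out (10 without WT activated 3), 17 without 2 and 11 without 3. The cohort comparison at rest gave 1 without 2 Pdha1 libraries and 3 without 3, and the activated one gave 0 with only the groups compared, 2 to 18 when each library was left out, 4 without 2 and 3 without 3. The causes of these differences were not tested.

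With the replicate number as a block, 27 members were called on activation of Acly KO cells (20 higher, 7 lower, beside 21.2% of all genes higher and 28.3% lower) and 30 of Acly WT cells (21 higher, 9 lower, beside 21.9% and 25.6%), and 0 elsewhere. Same-numbered libraries correlated at 0.03 to 0.20 in the Acly cohort and −0.78 to 0.45 in the Pdha1 cohort, so the numbers were not taken to pair them. With edgeR, 26 members were higher and 5 lower in activated Acly KO cells (25.5% of all genes higher and 16.7% lower) and 23 higher and 4 lower in WT cells (25.6% and 14.7%). With DESeq2, 20 were higher and 3 lower in KO cells (21.9% of all genes higher and 9.65% lower) and 21 higher and 2 lower in WT cells (21.3% and 9.94%). Depth limited members near 3 counts, among them Oas1a, Oas2, Mx2, Oasl1, Ifit3, Usp18 and Rtp4.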
